A study of Drosophila melanogaster with 2 samples.

Results

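The genes described here encode the factors that copy, package and transcribe the mitochondrial genome in *Drosophila melanogaster*. They were chosen by name from the deposited table of 17559 genes, and all 10 have a row in it: *TFAM*, *mtTFB1*, *mtTFB2*, *mtRNApol*, *mTTF*, *mTerf3*, *mtSSB*, *tam*, *bsf* and *mtDNA-helicase*. RNA was isolated from 1 pool of 10 whole flies of the control strain w1118 and from 1 pool of 10 whole flies labelled as Taf1_1 heterozygotes. The mutant flies came from a cross of w1118 with a TM3-balanced stock in which *taf1* is linked to the markers *red* and *e*, so the heterozygotes have 1 normal copy of the chromosome and both groups have a w1118 parent. The *taf1* allele is present in all tissues. Effects of *red*, *e* and any other difference between the *taf1* stock and w1118 cannot be told apart from those of *taf1*. Which of the strains supplied the mothers is not stated. *Taf1* encodes a subunit of TFIID, the complex that recruits RNA polymerase II to promoters. No source used here states age or sex. Each genotype has 1 library, so differences could not be checked between replicates, p-values were not calculated, and every ratio compares these libraries.

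Mitochondrial DNA is copied by a replisome that is encoded in the nucleus. The helicase Twinkle (*mtDNA-helicase*) unwinds the duplex, DNA polymerase gamma (catalytic subunit *tam*) extends the new strand, and the single-stranded DNA binding protein (*mtSSB*) coats the displaced strand. Transcription uses a phage-type RNA polymerase of a single subunit (*mtRNApol*), helped at promoters by *TFAM*, which also packages the genome into nucleoids, and by *mtTFB2*. Its paralog *mtTFB1* is known in flies mainly for mitochondrial translation, *mTTF* stops the polymerase between blocks of genes, *mTerf3* acts in mitochondrial ribosome assembly, and *bsf*, the fly relative of human LRPPRC, keeps mitochondrial messenger RNAs stable.

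The libraries held 16753242 reads (control) and 32364756 reads (mutant). Ratios were scaled by TMM (a trimmed mean of log ratios over genes). On this scale the mutant library counts as 1.61 times the control, and levels are in CPM, scaled counts per 1e6 reads. Scaling by total reads moves every log2 ratio by -0.26, and setting the 3 qPCR reference genes of the study (*RpL32*, *eEF1alpha2* and *Act5C*) to equality moves it by -0.33. A gene counted as measured when its reads summed to at least 20. Genes were called higher or lower at a ratio of 1.5-fold or more if the 95% interval, which covers counting error only, excluded equality. *Taf1* itself stood at 71.9% of control (95% interval 66.8 to 77.4), a log2 ratio of -0.48. Relative to the 200 genes most similar in transcript length and level it was -0.20. The testis marker list had 68034 and 120443 reads and the ovary and female list 336 and 480. Among tissue marker genes, 4 of 8 for fat body, 3 of 5 for gut, 3 of 11 for muscle and 3 of 12 for testis were called higher, beside 12.8% of all measured genes. Called lower were 2 of 7 for neurons and 2 of 6 for ovary, beside 6.16%, and the accessory gland list had 2 of 5 in each direction. The 2 ovary calls rested on few reads, 31 in control and 14 in the mutant library for 1 gene and 19 and 12 for the other. The median log2 ratio of the 12 testis genes was -0.01, so the list as a whole was not shifted upward. Of its 3 calls, *Mst84Da* rested on 2 reads in control and 118 in the mutant library. In whole flies, fewer cells of a type and less RNA per cell cannot be told apart, and the part of tissue make-up in the ratios below was not tested.

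None of the measured genes for replicating and transcribing mitochondrial DNA reached a 1.5-fold difference between the libraries. Of the 10 genes, 9 were measured, 0 were called higher and 0 were called lower. Among all 11606 measured genes, 12.8% were called higher and 6.16% lower. For 9 genes a count of 0 in each direction is close to these shares, so the count by itself says nothing particular about the factors. The median log2 ratio, mutant over control, came to -0.03 over the 9 genes, beside 0.0064 over all measured genes. The ratios ran from -0.24 (*mtSSB*) to 0.38 (*mTTF*), with 4 genes above 0 and 5 below, and 8 of the 9 lay between the lower and the upper quartile of all measured genes (-0.26 and 0.33). The exception was *mTTF*.

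A gene that is not called may still differ, so the intervals matter more than the count. For 7 of the 9 genes the whole 95% interval lay inside the 1.5-fold limits in both directions. Of all measured genes 58.4% met this condition, and among the 9668 genes whose summed reads reached 200, 69.3% did, beside 7 of the 8 factors with that many reads. The cut at 200 reads was chosen with the reads of the factors known and leaves out *mtSSB*. The share of factors above it is therefore a description and not a comparison set in advance. The 2 factors whose intervals reached past 1.5-fold were *mTTF* and *mtSSB*. Under scaling by total reads, and likewise with the qPCR genes at equality, 5 of the 9 intervals lay inside the limits. Those that reached outside were *mtTFB2*, *mtSSB*, *tam* and *mtDNA-helicase*. The share of all measured genes inside the limits was then 48.5% with total reads and 44.3% with the qPCR genes.

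**Figure D1:**
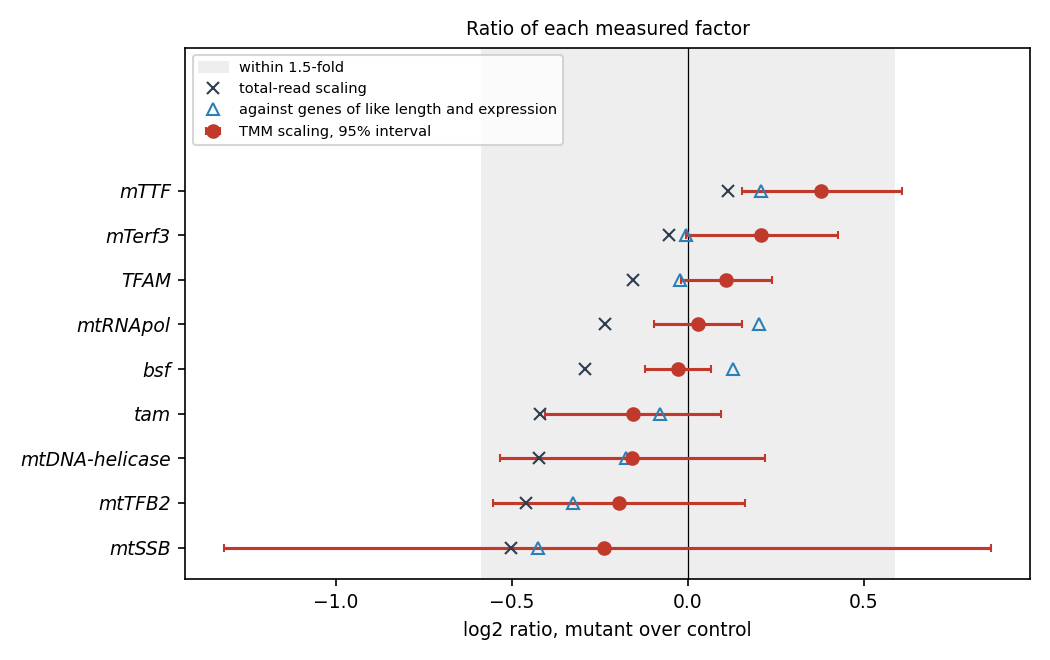
Log2 ratio of mutant over control (x axis) for the 9 measured factors (y axis). Filled points are TMM ratios with 95% counting intervals, crosses are total-read ratios, triangles are ratios relative to genes of similar length and level, and the grey band marks 1.5-fold. All 9 points lie inside the band, from -0.24 to 0.38, and the interval of *mtSSB* is the widest.

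The mutant levels of the 3 replisome genes were 84.3 to 89.7% of control, with intervals that all held equality. *tam* (FBgn0004406), listed in newer annotations as PolG1, lies on chromosome 2L from 13823980 to 13827772 on the minus strand of BDGP6, with 3 exons and a coding length of 3435 nt. It had 228 reads in control and 329 in the mutant library, or 13.6 CPM (95% Poisson interval 11.9 to 15.5) and 12.2 CPM (10.9 to 13.6). The intervals of the levels overlap, and the mutant level was 89.7% of control (75.5 to 106.7), a log2 ratio of -0.16. *mtDNA-helicase* (FBgn0032154; 2L, 9891255 to 9893446) had 102 and 147 reads, or 6.09 CPM (4.96 to 7.39) and 5.45 CPM (4.61 to 6.41). The mutant library thus held 89.6% of the control level (69.1 to 116), and the log2 ratio of -0.16 was that of *tam*. The polymerase and the helicase had the same ratio to this precision, and neither was called. Their difference in log2 ratio had a 95% interval from -0.44 to 0.44, so this nearness is far below counting error.

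*mtSSB* (FBgn0010438; 3R, 16204194 to 16205250) was covered by 14 reads in control and 19 in the mutant library, 0.836 CPM (0.457 to 1.40) and 0.705 CPM (0.424 to 1.10). Its ratio of 84.3% of control has an interval from 40.1 to 182%, and a difference inside that range was not detectable at this depth. The annotation places 411 of the 575 exon bases of *mtSSB* (71.5%) under exons of *CG31287*, which runs on the opposite strand and had 1793 and 2006 reads. The kit keeps the strand of each RNA, but no source used here states the strand setting of the counting. Per kb of all its exon bases *mtSSB* stood at 1.45 CPM in control and 1.23 CPM in the mutant library. Counted per kb of the bases that no other gene shares, a calculation chosen after the reads were seen, these were 5.10 and 4.30 CPM. On the second scale *mtSSB* lay next to *mtTFB2* (4.53 and 3.95 CPM), so its place among the factors depends on the length used, while its ratio between the libraries does not.

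The genes of transcription initiation had ratios whose intervals all held equality. *mtRNApol* (FBgn0261938; PolrMT in newer annotations; 2L, 1103254 to 1108373, 8 exons, coding length 4107 nt) had 839 reads in control and 1377 in the mutant library, or 50.1 CPM (46.7 to 53.6) and 51.1 CPM (48.4 to 53.9). The mutant level was 102% of control (93.5 to 111), a log2 ratio of 0.03 (-0.10 to 0.15). *TFAM* (FBgn0038805; 3R, 20575245 to 20577010) had 766 and 1329 reads, or 45.7 CPM (42.5 to 49.1) and 49.3 CPM (46.7 to 52.0), and its log2 ratio was 0.11 (-0.02 to 0.24). *mtTFB2* (FBgn0037778; 3R, 10045574 to 10047260) had 114 and 160 reads, or 6.80 CPM (5.61 to 8.17) and 5.94 CPM (5.05 to 6.93), and its log2 ratio was -0.20 (-0.55 to 0.16). The 3 genes that act at promoters thus lay on both sides of equality, and none was called. With total reads all 3 lay below 0, *TFAM* at -0.15, *mtRNApol* at -0.24 and *mtTFB2* at -0.46, and with the qPCR genes at equality at -0.22, -0.30 and -0.52.

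*mtTFB1* (FBgn0261381; 3L, 11708979 to 11710570) was listed at 0 in both libraries. In the annotation, all 1529 of its exon bases are shared on the same strand with *Ccdc56*, a gene for a cytochrome c oxidase assembly factor, which has the same start and end and was also listed at 0. The accessory subunit of polymerase gamma, *DNApol-gamma35* (PolG2; 2L, 13831482 to 13833105), was in the same position. Its 1570 exon bases are all shared with *CG33649*, and both genes were listed at 0. The RNA-binding protein gene *CG33714* (SLIRP1) and its partner *CG33713*, which share 1352 exon bases, were at 0 as well. Of the 292 protein-coding genes on the nuclear chromosomes whose exon bases are all shared with other genes on the same strand, 282 (96.6%) were listed at 0, and of 69 genes that are wholly shared on the opposite strand alone, 64 (92.8%) were. Among the 9207 genes that share no exon base 1526 (16.6%) were at 0, the abundant photoreceptor gene *Arr2* among them. The expression of *mtTFB1* can therefore not be read from its value of 0, and why such genes are listed at 0 was not tested.

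**Figure D2:**
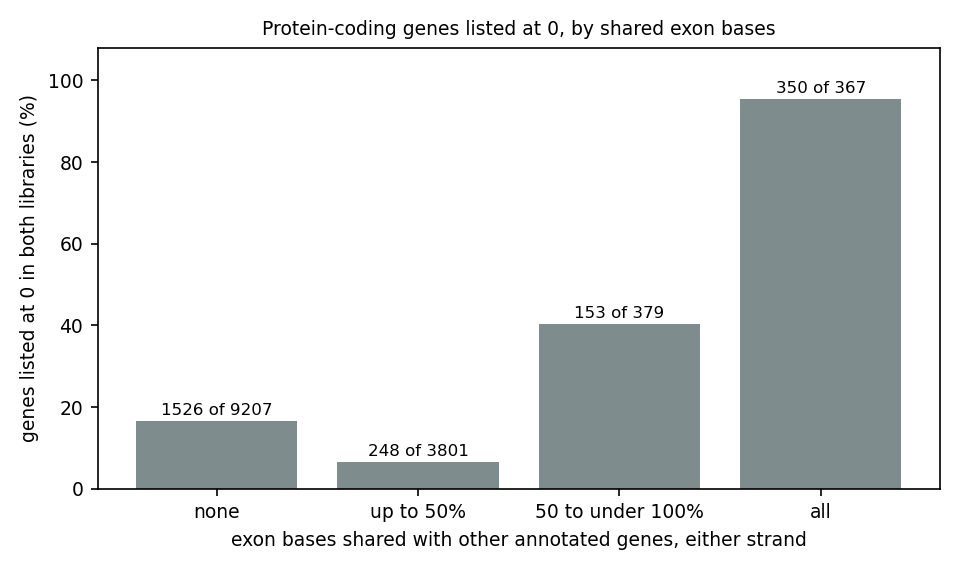
Share of protein-coding genes listed at 0 in both libraries (y axis, %) by the share of their exon bases that other annotated genes cover on either strand (x axis). The numbers over the bars are genes at 0 of all genes in the class. The class of *mtTFB1*, with all bases shared, has 350 of 367 genes at 0.

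The mTERF family, whose members bind DNA or RNA through helical repeats, held the highest ratios of the set. *mTTF* (FBgn0028530; 2L, 14347239 to 14348790, coding length 1230 nt) had 239 reads in control and 500 in the mutant library, or 14.3 CPM (12.5 to 16.2) and 18.5 CPM (17.0 to 20.2). The intervals of the levels do not overlap, and the mutant level was 130.0% of control (111 to 152), a log2 ratio of 0.38 (0.15 to 0.61). It was the 1 factor of 9 whose interval excluded equality under TMM scaling, and it stayed short of 1.5-fold. With the limit lowered to 25% above control *mTTF* was called higher, as were 22.1% of all measured genes, and under the matching limit below control 0 of the 9 factors were called lower, beside 17.6% of all measured genes. *mTerf3* (FBgn0037008; 3L, 20519590 to 20520772) had 272 and 506 reads, or 16.2 CPM (14.4 to 18.3) and 18.8 CPM (17.2 to 20.5), and its log2 ratio was 0.21 (-0.01 to 0.43). *mTerf5*, another fly gene of the family and a partner of mTTF on mitochondrial DNA, was called higher at 0.70 (0.44 to 0.96), from 172 to 449 reads. These 3 ratios depended on the scaling. With total reads they were 0.11 (*mTTF*, -0.11 to 0.34), -0.05 (*mTerf3*) and 0.43 (*mTerf5*, 0.18 to 0.70), with the qPCR reference genes at equality 0.05, -0.12 and 0.37, and neither scaling left a family member called.

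*bsf* (FBgn0284256; 2L, 18449517 to 18454587, coding length 4236 nt) had the most reads of the set, 1490 in control and 2351 in the mutant library. These are 88.9 CPM (84.5 to 93.6) and 87.2 CPM (83.7 to 90.8), and the mutant level was 98.1% of control (91.9 to 105), the narrowest interval of the 9. A second fly gene of the LRPPRC type, *CG14786* (Lrpprc2), had 540 and 1146 reads and a log2 ratio of 0.40 (0.25 to 0.55), which also stayed below 1.5-fold.

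Ratios of 2 factors can be set against each other within the same libraries, which removes the scaling. Of the 36 pairs of measured factors, the 95% interval of the difference excluded 0 in 8, and 6 of these 8 involved *mTTF*. When the intervals were widened for 36 pairs, 1 pair remained, *mTTF* against *bsf*, with a difference in log2 ratio of 0.41 (95% interval 0.17 to 0.65, widened 0.01 to 0.80). *mTTF* lay above *tam* by 0.54 (0.21 to 0.87) and above *mtRNApol*, whose transcription it ends, by 0.35 (0.10 to 0.60) on the log2 scale. For *mTTF* and *mTerf3* the interval of the difference held 0. The pairs differ in transcript length, and relative to the 200 genes most similar in length and level *mTTF* and *bsf* were 0.08 apart (-0.16 to 0.32) and *mtRNApol* and *mTTF* differed by -0.0065 (-0.26 to 0.25). Computed in this way, after the reads were seen, the interval excluded 0 in 5 of the 36 pairs and in 0 with the widened intervals.

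The order of the levels per kb of exon was nearly the same in both libraries. *TFAM* led with 36.8 CPM per kb in control and 39.7 in the mutant library, followed by *bsf* (19.95 and 19.57) and *mTerf3* (14.4 and 16.7). *TFAM* exceeded *bsf* by 1.84-fold (1.69 to 2.01) in control and 2.03-fold (1.90 to 2.17) in the mutant library. *mtRNApol* stood at 10.6 and 10.8 CPM per kb. *mTTF* followed it at 9.96 CPM per kb in control, where the pair did not differ beyond counting error (1.07-fold, 0.92 to 1.24), and passed it at 12.9 CPM per kb in the mutant library (1.20-fold, 1.08 to 1.33). *mtTFB2* (4.50 and 3.93), *tam* (3.70 and 3.32) and *mtDNA-helicase* (3.10 and 2.78) came next, and in both libraries neither neighbouring pair of these 3 differed beyond counting error. In control, *TFAM* lay at percentile 77.0 of all measured genes by this level, *mtRNApol* at 45.3, *mtDNA-helicase* at 18.7 and *mtSSB* at 10.2. The transcripts of the packaging and mRNA-binding proteins thus had the highest levels per length of the 9 in both libraries.

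**Figure D3:**
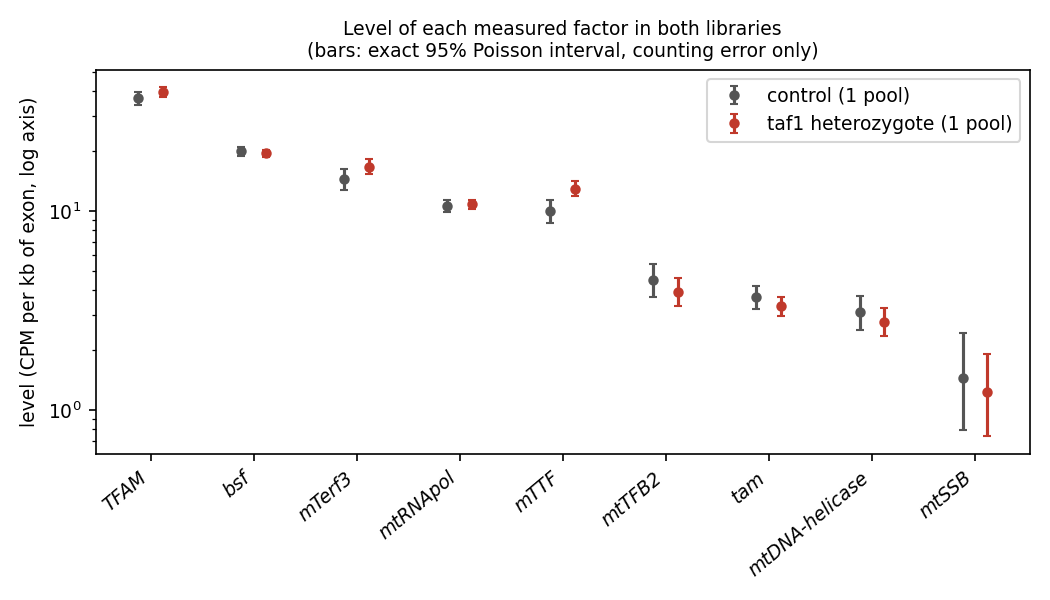
Level of the 9 measured factors in CPM per kb of exon (y axis, log scale) in the control library (grey) and the mutant library (red), with exact 95% Poisson intervals. From *TFAM* at 36.8 and 39.7 to *mtSSB* at 1.45 and 1.23, the pairs of points lie close together, and only those of *mTTF* have intervals that do not overlap.

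Across all measured genes of these libraries, longer transcripts had lower log2 ratios. When measured genes were split by length into 10 equal groups, the shortest (152 to 649.5 nt) had a median of 0.19 and the longest (from 4421 nt) a median of -0.27. Across the 9 factors, which share both libraries and range from 575 to 4603.5 nt, Spearman's rho between length and ratio was -0.02, against -0.31 across 11499 measured genes. Each ratio was also set against the median of the 200 genes most similar in length and level. On this scale *mtRNApol* moved to 0.20 and *bsf* to 0.13, both above the median of their similar genes. *mTTF* moved to 0.21, *TFAM* to -0.02, *mTerf3* to -0.01, *tam* to -0.08, *mtDNA-helicase* to -0.18, *mtTFB2* to -0.33 and *mtSSB* to -0.43. The median over the 9 genes was -0.02, and 0 were called in either direction. With the counting intervals shifted by the same amounts, those of *mtRNApol* (0.08 to 0.33) and *bsf* (0.03 to 0.22) lay above the median of their similar genes. Before this shift both intervals held equality between the libraries. The shifted intervals leave out the spread among the 200 genes. The shifted intervals of the other 7 genes held the median of their similar genes, *mTTF* (-0.02 to 0.44) included.

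**Figure D4:**
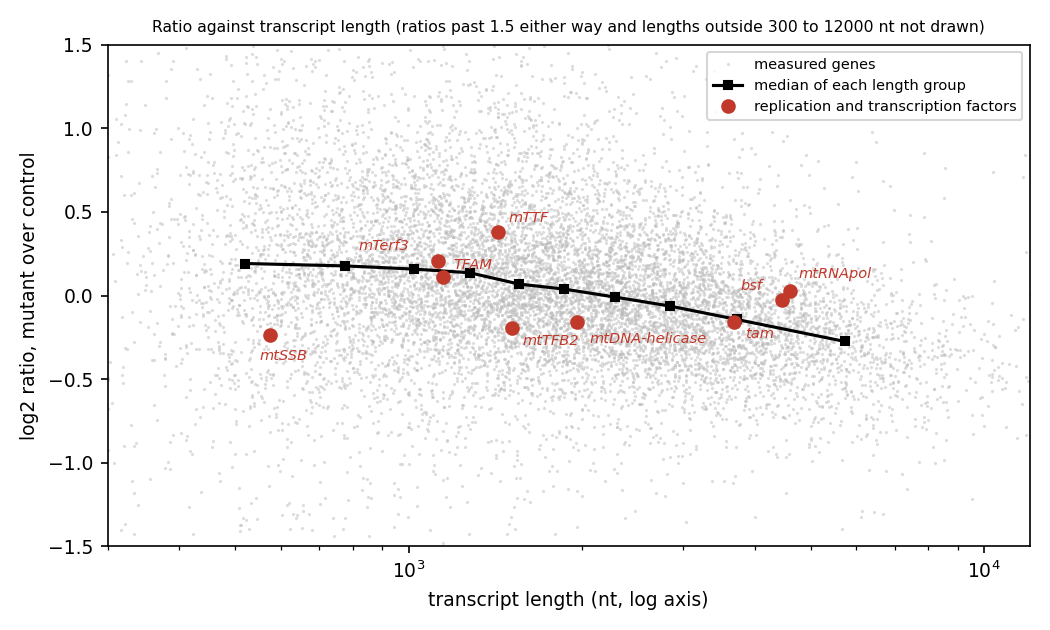
Log2 ratio of mutant over control (y axis) against transcript length in nt (x axis, log scale) for measured genes (grey), the median of each of 10 length groups (black) and the 9 factors (red). The black line falls from 0.19 to -0.27, and the factors lie on both sides of it.

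The transcripts made from mitochondrial DNA gave another picture. Of the 13 protein genes of the mitochondrial genome 12 were measured, and all 12 were called higher, beside 12.8% of all measured genes. The median of their log2 ratios was 2.97. Highest were *mt:ND3* (7.03), *mt:Cyt-b* (4.08) and *mt:ND4* (3.60), and lowest were *mt:ND2* (1.20), *mt:ND6* (1.52) and *mt:CoIII* (2.05). The ratios were thus far from uniform across the genes. *mt:ND3* had 58 reads in control and 12311 in the mutant library (interval 6.67 to 7.44), and *mt:ND6* had 23 and 107 (0.87 to 2.25). All mitochondrially encoded genes together took 2.91% of reads in control and 15.2% in the mutant library. The 13 protein genes had 168241 reads in control and 1696125 in the mutant library. Set against their polymerase, which needs no scaling, this was 200.5 reads per *mtRNApol* read in control and 1232 in the mutant library, a 6.14-fold difference (95% interval 5.64 to 6.69). Per *TFAM* read it was 220 and 1276 (5.81-fold, 5.32 to 6.35), per *bsf* read 113 and 721 (6.39-fold, 5.99 to 6.82), and per *tam* read 738 and 5155 (6.99-fold, 5.90 to 8.27). Over the 9 factors this difference ran from 4.82-fold (*mTTF*, 4.13 to 5.62) to 7.43-fold (*mtSSB*, 3.72 to 14.8). The 9 values use the same mitochondrial reads, so they are not independent of each other. The transcripts of the mitochondrial genome were thus higher in the mutant library relative to each of the 9 measured factors. All 12 measured genes were called higher under each scaling tried, and *mt:ATPase8* (0 and 19 reads) stayed below the read minimum. The source of this difference was not tested.

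The other genes of the pathway were described from lists written with earlier results of these data known. Of 12 partners in replication and maintenance of mitochondrial DNA, 10 were measured, 0 were called in either direction, and the median was -0.02. Among all measured genes 12.8% were called higher and 6.16% lower. They ranged from *Lon*, the matrix protease that degrades TFAM, at -0.31 (-0.37 to -0.25), to *RnrS*, the small subunit of ribonucleotide reductase, at 0.56 (0.33 to 0.80). With the qPCR genes at equality *Lon* was called lower, as were 23.7% of all measured genes. The nucleoid-associated ATPase gene *bor* was at -0.01 and the pyrimidine nucleotide carrier gene *Rim2* at -0.09. Of 6 measured regulators of nuclear genes for mitochondria 0 were called, beside 12.8% higher and 6.16% lower among all measured genes. All 6 lay below 0 (median -0.22). Among them *srl*, the fly PGC-1, was at -0.18 (-0.39 to 0.03) and *ewg*, the fly NRF-1, at -0.12 (-0.24 to 0.01). *Dref*, which binds promoters of replication genes, was at -0.06 (-0.25 to 0.12). The intervals of the other 3 lay wholly below equality, with *Hcf* at -0.29 (-0.37 to -0.21), *ERR* at -0.26 (-0.50 to -0.02) and *Ets97D*, the fly GABP alpha, at -0.25 (-0.48 to -0.03). Relative to genes of similar length and level the median of the 6 was -0.02. On that scale *ERR* (-0.37) and *Ets97D* (-0.35) lay lower than before. The others moved up, *Hcf* to -0.05, *srl* to -0.0014, *ewg* to 0.01 and *Dref* to 0.03. With the qPCR genes at equality 2 of the 6, *ERR* and *Hcf*, were called lower, beside 23.7% of all measured genes.

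Of 11 measured genes that process mitochondrial RNA, 3 were called higher and 1 lower, beside 12.8% and 6.16% of all measured genes, and the median was 0.27. *scu*, a dehydrogenase that is also a subunit of mitochondrial RNase P, was at 1.19 (1.10 to 1.29), from 1100 to 4043 reads, and *CG15896* (mldr), the nuclease subunit of the same enzyme, was at 0.92 (0.54 to 1.33), from 72 to 220 reads. The remaining gene called higher was *mTerf5*. *CG8021* (SLIRP2), related to the partner of LRPPRC in mammals, was lower at -0.61 (-1.03 to -0.19), from 94 to 99 reads. *CG11337* (PNPase), a mitochondrial exoribonuclease, was at -0.23. Of all list genes its ratio lay nearest to that of *mtSSB*, the lowest factor (0.01 apart in log2 ratio over 2 libraries). With 14 and 19 reads the interval of *mtSSB* ran from -1.32 to 0.86, so this nearness is far below counting error. The gene nearest to *mTTF*, the highest factor, was *Rpb7* of RNA polymerase II at 0.37, also 0.01 apart. Under both other scalings, total reads or qPCR reference genes at equality, *scu* and *CG15896* remained higher and *CG8021* lower.

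The nuclear replication and transcription genes were read in the same way. Of 13 measured genes for nuclear DNA replication, 2 were higher and 0 lower, beside 12.8% and 6.16% of all measured genes, with a median of 0.0045 and a range from -0.52 (*DNApol-alpha180*) to 0.85 (*RPA3*). *DNApol-epsilon255*, the catalytic subunit of DNA polymerase epsilon, was the other gene called, at 0.65 (0.31 to 1.02). These calls depended on the scaling, with 1 higher and 3 lower under total reads (7% and 19.1% of all measured genes) and 0 higher and 4 lower with the qPCR genes at equality (6.21% and 23.7%), where *DNApol-alpha180*, *PCNA*, *Mcm2* and *Mcm7* were called lower. Of 9 measured genes for RNA polymerase II and its basal factors, 0 were called, and the median was 0.21 with a range from -0.16 (*RpII215*, the largest subunit) to 0.45 (*RpII33*). Single-subunit *mtRNApol* at 0.03 lay inside that range. Whether the factors for mitochondrial DNA differ from these lists was not tested.

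**Figure D5:**
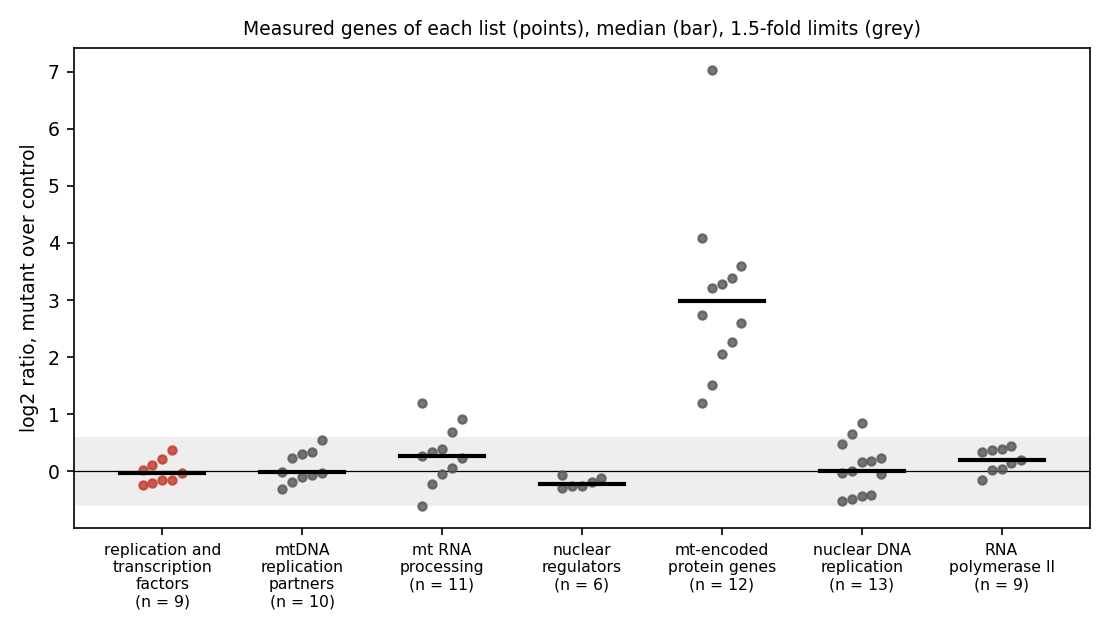
Log2 ratio of mutant over control (y axis) for each measured gene (points) of the mitochondrial DNA factors (red) and of 6 lists (grey), with the median as a bar and the 1.5-fold limits as a band. The 9 factors lie inside the band, and the 12 mitochondrially encoded genes lie above it, from 1.20 to 7.03.

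The position of the whole set relative to equality depended on the scaling. With total reads the median of the 9 factors was -0.29, with 1 gene above 0 (*mTTF*) and 6 intervals wholly below equality, and still 0 were called higher or lower, while 7% of all measured genes were called higher and 19.1% lower. With the qPCR reference genes at equality the median was -0.35, again with 0 calls, beside 6.21% higher and 23.7% lower. The median of all measured genes moved along, to -0.26 and -0.32.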

How the data were processed

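RNA of 1 pool of 10 whole flies per genotype was prepared with a stranded mRNA kit and sequenced on an Illumina HiSeq, with genome build BDGP6 per the submitters' processing notes. The aligner, counter and strand setting were not given in the sources used here. Deposited values are a signal per gene, made by the authors from read counts divided by 1 factor per library. A single read is worth 1.31 in control and 0.794 in the mutant library, and dividing by this gave integers within 0.001 of a read, so whole reads were recovered for 100% of the values. A count model such as edgeR leaves 0 residual degrees of freedom with 1 library per genotype and could not be fitted.

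Ratios were scaled by TMM (Python 3.11.15, numpy 2.4.6, pandas 2.3.3, scipy 1.17.1, matplotlib 3.10.9) with a prior count of 0.5, and the size ratio equalled that of edgeR 4.0.16. Intervals are exact conditional binomial (Clopper-Pearson) for ratios, exact Poisson for CPM and normal approximations for differences between ratios. No molecular identifiers are described, so several reads may stem from 1 molecule and the intervals cover counting error only. A value of 3 reads corresponds to 0.179 CPM in control and 0.111 CPM in the mutant library. Lengths, coordinates and exon overlap came from Ensembl release 115 (BDGP6), which matched 17338 of 17559 genes. Sequences were not used here.

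The members and lists were chosen with earlier results of these data known. Genes named are all members, *Taf1*, neighbouring or overlapping genes, the 3 highest and lowest called genes of each pathway list, and the list gene nearest in ratio to the highest and to the lowest member. Uncalled list genes were named for their role or as the end of a range, after their values were seen. Tissue marker lists gave these higher and lower calls of measured genes: testis 3 and 0 of 12, ovary and female 0 and 2 of 6, accessory gland 2 and 2 of 5, muscle 3 and 0 of 11, neuron 0 and 2 of 7, photoreceptor 0 and 0 of 6, fat body and hemolymph 4 and 0 of 8, and gut 3 and 0 of 5. Alternatives changed the scaling, the prior count, the read minimum, the fold limit and the correction for length. The procedure was tested on simulated data.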

Additional observations from a re-analysis of the deposited data

How the results depend on the processing

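The counts of factors called (0 higher, 0 lower) were the same under each scaling, prior count, read minimum and length correction tried, and with the limit lowered to 25% above control 1 factor, *mTTF*, was called higher. The median log2 ratio of the factors moved to -0.29 with total reads and to -0.35 with the qPCR reference genes at equality. With total reads the list medians moved to -0.28 (replication partners), -0.48 (regulators) and -0.058 (RNA polymerase II). Nuclear DNA replication then had 1 higher and 3 lower, beside 7% and 19.1% of all measured genes. With the qPCR genes at equality the same medians were -0.34, -0.54 and -0.12. Under this scaling 1 replication partner and 2 regulators were lower, and nuclear DNA replication had 0 higher and 4 lower. Of all measured genes 6.21% were then called higher and 23.7% lower. Relative to genes of similar length and level the median of the regulators was -0.023. At 2-fold, RNA processing had 1 higher and 0 lower, and nuclear DNA replication 0 higher, beside 5.76% higher and 1.7% lower among all measured genes. At the lowered limit 2 replication partners, 5 RNA processing genes and 4 RNA polymerase II genes were higher and 3 nuclear DNA replication genes lower. Of all measured genes 22.1% were called higher and 17.6% lower at that limit. Over all settings *mTTF* ranged from 0.05 to 0.38, *TFAM* from -0.22 to 0.11, *mtRNApol* from -0.30 to 0.20 and *tam* from -0.48 to -0.08. TMM over genes that share no exon base, levels per kb of unshared bases, and pairs and intervals relative to genes of similar length and level, were added after seeing the data. The cut at 200 summed reads was likewise chosen with the reads of the factors known. Depth limits *mtSSB* most, with 14 and 19 reads. No paired analysis was possible because each genotype has 1 library, and no replicate could be left out. The promoter and protein features planned as descriptions were not run.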

Other observations

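Several of the factors have a neighbour that starts close by on the opposite strand. A protein-coding gene starts head to head within 300 bases of 5 of the 10 factors, beside 2296 of 13792 protein-coding genes (16.6%) in the table, which is given as a description. *TFAM* and *CG5412* start 42 bases apart, and *CG5412* had 284 reads in control and 637 in the mutant library, a log2 ratio of 0.48 (0.28 to 0.69) beside 0.11 for *TFAM*. *mtTFB2* and *CG11722* start 31 bases apart, and *CG11722* (583 and 1159 reads) was at 0.31 (0.16 to 0.45) beside -0.20 for *mtTFB2*. The neighbours thus had ratios above those of the factors in both of these pairs.

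*mtRNApol* lies 166 bases from *CG14339* (507 and 697 reads), which was at -0.23 (-0.39 to -0.06) beside 0.03. *bsf* lies 61 bases from *Ntf-2r* (438 and 484 reads), which was at -0.54 (-0.73 to -0.35) beside -0.03. In these pairs the neighbour was the lower gene. *mTerf3* and *CG5104* (318 and 598 reads), 236 bases apart, had nearly the same ratio, 0.21 and 0.22. The neighbours of the 5 pairs therefore lay on both sides of their factors. Of the 5 neighbours 0 were called, beside 12.8% of all measured genes called higher and 6.16% called lower.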
